A study of Mus musculus with 8 samples.

Results

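Time in culture was examined in AML12 cells that carry v-erbA, by setting the 2 arrays titled 24 h (control and RA) against the 2 titled 3 h (control and RA), paired by treatment. These 4 arrays were chosen by their titles, out of 8 in the series. AML12 is a mouse hepatocyte line, and the cells studied here were transfected with v-erbA, the retroviral oncoprotein derived from a thyroid hormone receptor. The 4 groups, each of 1 array, were v-erbA cells without RA at 3 h, v-erbA cells with 1 µM retinoic acid (RA) at 3 h, and the same pair at 24 h. The other 4 arrays hold the same combinations in AML12 cells without v-erbA. All groups share the AML12 background, and the v-erbA groups all carry the transfected gene, so 3 h and 24 h differ in time alone by their titles. The description of both v-erbA arrays titled 24 h names 3 h instead, and the titles were followed. No combination was replicated and nothing states that the arrays came from separate cultures. The scatter behind each standard error and p-value is the departure of the 8 arrays from a fit of line by time plus RA. It can hold technical scatter and also RA effects that differ between times or lines, and these cannot be told apart. Time and the set in which arrays were processed cannot be told apart: 1 probe set has no value on any of the 4 arrays titled 24 h and a value on all 4 titled 3 h.

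Cells plated or fed together leave the growth phase as they become crowded and as the medium is used up. In a dividing culture the transcripts of mitosis rise late in each cell cycle. In resting cells they are switched off by a repressor complex that binds a promoter element, the CHR (cell cycle genes homology region). Many of their promoters also carry a CCAAT box, a separate element that is not the site of that complex. Hepatocytes also answer inflammatory and nutrient signals with transcripts under NF-kB, FoxO, ATF4 and SREBP, the regulators respectively of inflammation, of starvation, of amino acid shortage and of sterol synthesis.

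The platform often carries several probe sets for a gene, and a gene was counted as higher or lower only where 2 or more of its probe sets were tested, all changed in 1 direction and 2 or more passed an adjusted p of 0.05. A probe set was tested where its signal was above 73.5 units on 2 or more of the 8 arrays, a bar set at the pooled median and called the level below. Changes are 24 h minus 3 h on the scale of log2(signal + 19.9), with their standard error (SE), and the fold on that scale understates the change of dim probe sets. Where both arrays of the lower time were under the level, the fold is given as a bound against the level. Of 24955 probe sets tested, 4120 passed (16.5%), 2364 higher and 1756 lower at 24 h. Of 5419 genes with 2 or more tested probe sets, 195 counted as higher (3.6%) and 115 as lower (2.12%). The counts of every gene list below are to be read against these shares. All tested probe sets of 167 of the 195 and of 113 of the 115 moved the same way in the control pair and in the RA pair. The balance of the counts depended on scaling: with each array centred on its median 112 genes counted as higher and 178 as lower, and with quantile normalization 139 and 155. The median change over all tested probe sets was 0.04, against -0.0044 after centring and 0.0043 after quantile normalization.

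The counted changes were small. The median of the smallest change among a counted gene's probe sets was 0.24 for genes higher and 0.29 in size for genes lower, and only 1 higher and 2 lower genes kept a 2-fold change on their least changed probe set. Of 471 genes with a called probe set that changed at least 2-fold, 53 counted (11.3%), against 257 of 1155 genes whose calls were all under 2-fold (22.3%). Of the 1423 probe sets called at 2-fold or more, 1183 (83.1%) were under the level on both arrays of the lower time, against 8.31% of those called at less than 2-fold. Their median brightest signal was 151 units, against 632. Over all genes with 2 or more tested probe sets, the 2 brightest pointed the same way in 3728 of 5419 (68.8%).

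**Figure D1:**
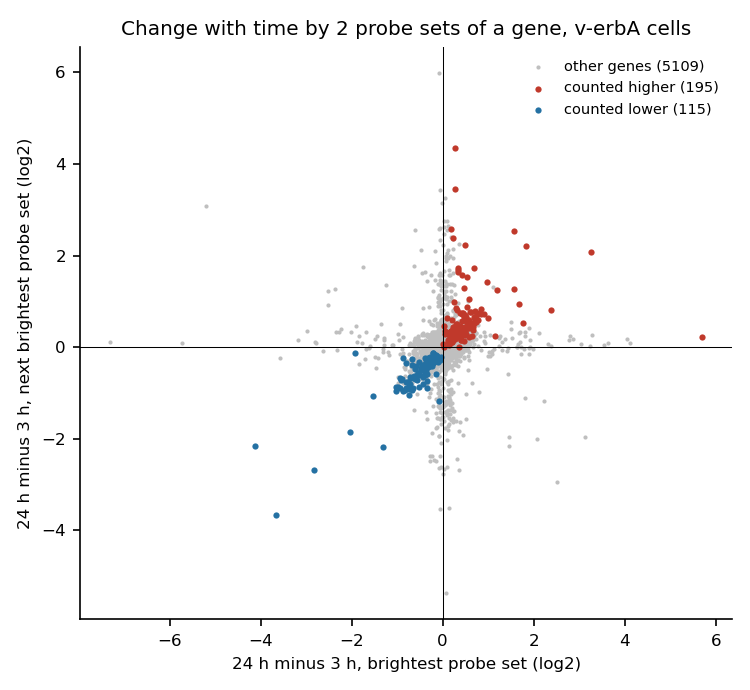
Change from 3 h to 24 h in v-erbA cells on the brightest (x axis) and next brightest (y axis) tested probe set of each of 5419 genes, in log2 units, with genes counted as higher in red (195), as lower in blue (115) and others in grey (5109). Many of the large changes lie along 1 axis, where the other probe set of the gene is near 0, and counted genes lie in the quadrants where both changes have 1 sign.

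Genes of mitosis were the list with the most members lower at 24 h among the 36 lists examined. Of 25 mitosis genes with 2 or more tested probe sets, 12 counted as lower and 0 as higher, with a median change of -0.78 on the brightest probe set, against 0.03 over all 5419 genes. The brightest probe set of all 25 had a negative change, also after centring and after quantile normalization. Of the 63 probe sets of these genes 61 had a negative change and 33 passed the test (52.4%), against 6.34% of all probe sets of genes with 2 or more called lower. Both 24 h arrays lay below both 3 h arrays on 58 of the 63, against 25.2% of all such probe sets. Of 19 further mitosis genes with 1 tested probe set, 9 passed the test as lower, against 8.26% of all genes with 1 tested probe set.

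Ccna2, the cyclin A that drives entry into mitosis, read 1785 units in the 3 h control, 1738 in the 3 h RA, 899 in the 24 h control and 1083 in the 24 h RA culture. Its brightest probe set changed by -0.82 (SE 0.17, adjusted p = 0.00885) and the other by -0.94 (SE 0.21, adjusted p = 0.0139). Both 24 h arrays lay well below both 3 h arrays. Cdc20, the activator of the anaphase promoting complex, read 1752 and 1702 at 3 h and 1004 and 1049.9 at 24 h on its brightest probe set, a change of -0.74 (SE 0.17, adjusted p = 0.0187). Its other 2 probe sets changed by -0.91 and -1.22. All 3 probe sets of Cdc20 passed, but Cdc20 did not count without probe sets that the manufacturer marks as cross-matching.

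Kif11, which pushes spindle poles apart, read 715 and 744 at 3 h and 381 and 435 at 24 h, a change of -0.81 (SE 0.19, adjusted p = 0.02). Of its 3 probe sets 2 passed, and the other changed by -0.75 with an adjusted p of 0.0702. Kif23, a motor of the central spindle, read 787 and 709 at 3 h and 342 and 373 at 24 h, a change of -1.02 (SE 0.27, adjusted p = 0.0315). Cenpe, a motor at the kinetochore, read 329 and 386 at 3 h and 155 and 175 at 24 h, a change of -1.03 (SE 0.27, adjusted p = 0.0313). Nek2, a kinase of centrosome separation, read 776 and 744 at 3 h and 366 and 410.2 at 24 h, a change of -0.94 (SE 0.25, adjusted p = 0.035). In each of these genes the arrays of the 2 times did not overlap.

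Among the 14 genes with the largest agreeing falls were 3 genes of cell division outside the mitosis list, named here for the size of their fall. Kif20b, a kinesin of cytokinesis, read 458 and 444 at 3 h and 234 and 245 at 24 h, a change of -0.86 (SE 0.22, adjusted p = 0.0264), and all 3 of its probe sets passed. Racgap1, which sets up the contractile ring with Kif23, read 857 and 783 at 3 h and 451 and 503 at 24 h, a change of -0.76 (SE 0.21, adjusted p = 0.0432). Cep55, which acts at the midbody when daughter cells part, read 1397 and 1413 at 3 h and 791 and 811 at 24 h, a change of -0.80 (SE 0.23, adjusted p = 0.0478). None of the 3 counted with any 1 of the 4 v-erbA arrays left out, and Cep55 and Racgap1 did not count without either 3 h array of AML12.

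**Figure D2:**
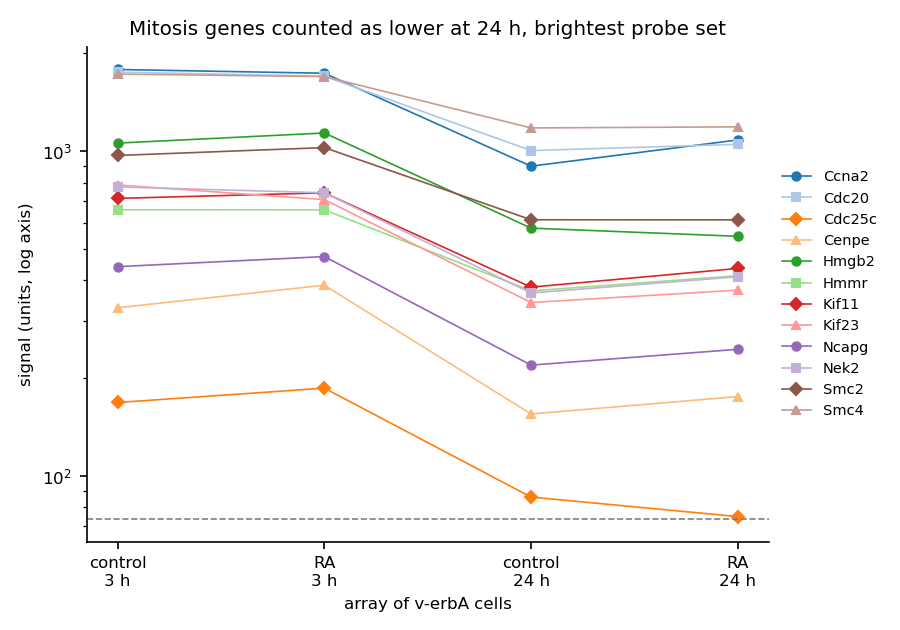
Signal of the brightest probe set (units, log axis) on the 4 arrays of v-erbA cells for the 12 mitosis genes that counted as lower, with lines joining the arrays for each gene and the dashed line at the level of 73.5 units. In every gene both 24 h arrays sit below both 3 h arrays, while control and RA arrays of 1 time lie close together.

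The standard errors of these genes come from all 8 arrays, and the control and RA pairs of AML12 lay apart. The median change of the mitosis genes was -0.81 in the control pair and -0.72 in the RA pair of v-erbA cells, but -1.31 in the control pair and -0.38 in the RA pair of AML12 cells. The median SE of the mitosis genes was 0.20, against 0.080 over all genes. The count of mitosis genes lower was 18 with either 24 h array of AML12 left out, and between 1 and 4 with any 1 of the 4 v-erbA arrays left out (1 without the 3 h control or the 24 h RA array, 3 without the 24 h control, 4 without the 3 h RA). Each such fit has 1 residual degree of freedom fewer, and all 25 brightest probe sets kept a negative change in each. With all 8 arrays but without cross-matching probe sets 8 mitosis genes counted, and Cdc20, Cdc25c, Hmgb2 and Nek2 were lost. With an offset of 1 unit 8 counted, and Cenpe, Kif23, Ncapg and Smc2 were lost.

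The promoters of the counted mitosis genes are shown for both elements named above, the CCAAT box and the CHR. Promoters were matched by symbol in the RefSeq table (GRCm38.p6), which held 9 of the 12 genes, and the 250 bases before the start site were searched on both strands for CCAAT and, as a CHR, TTTGAA; the letters do not overlap each other. CCAAT was found in 9 of the 9, against 33.8% of 32851 promoters of all genes, and TTTGAA in 5 (Cdc20, Hmgb2, Kif11, Ncapg and Smc2), against 16.0%. Over the whole mitosis list, counted or not, 74.4% of 39 promoters held CCAAT and 33.3% held both, against 5.55% of all promoters with both. Below, capitals mark CCAAT and TTTGAA or their reverse complements, ATTGG and TTCAAA, on the strand of the gene.
Cdc20, chr4:118437344-118437593, minus strand: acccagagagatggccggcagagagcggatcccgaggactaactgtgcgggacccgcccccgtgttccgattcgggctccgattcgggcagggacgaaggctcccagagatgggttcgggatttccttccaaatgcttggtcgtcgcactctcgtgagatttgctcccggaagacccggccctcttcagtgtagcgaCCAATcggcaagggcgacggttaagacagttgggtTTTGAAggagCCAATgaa
Kif11, chr19:37376132-37376381, plus strand: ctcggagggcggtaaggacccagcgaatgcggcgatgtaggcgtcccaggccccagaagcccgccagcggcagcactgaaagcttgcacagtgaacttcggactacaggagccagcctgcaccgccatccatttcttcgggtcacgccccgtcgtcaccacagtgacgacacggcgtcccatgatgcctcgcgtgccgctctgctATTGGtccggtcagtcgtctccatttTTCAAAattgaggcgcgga
Nek2, chr1:191821223-191821472, plus strand: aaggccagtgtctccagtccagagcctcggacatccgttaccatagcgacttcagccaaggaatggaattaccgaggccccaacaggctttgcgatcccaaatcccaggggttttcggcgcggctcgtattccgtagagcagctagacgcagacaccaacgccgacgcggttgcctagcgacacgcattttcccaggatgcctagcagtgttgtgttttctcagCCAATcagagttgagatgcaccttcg
Hmmr, chr11:40733438-40733687, minus strand: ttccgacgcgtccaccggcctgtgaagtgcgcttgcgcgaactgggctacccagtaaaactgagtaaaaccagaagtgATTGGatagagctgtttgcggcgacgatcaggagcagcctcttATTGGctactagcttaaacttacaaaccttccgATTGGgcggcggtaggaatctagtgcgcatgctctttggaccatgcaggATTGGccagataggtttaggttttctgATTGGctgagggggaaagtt
Cdc20 and Kif11 hold both letters close to the start site, with TTTGAA beginning 18 and 19 bases before it. Nek2 holds 1 CCAAT and no TTTGAA, and Hmmr, the hyaluronan receptor that also binds the spindle, holds CCAAT 5 times. A match of letters is not evidence of binding.

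The replication genes had a smaller median change than the mitosis genes, a difference that was not tested. Of 25 replication and S-phase genes with 2 or more tested probe sets, 3 counted as lower (12%, against 2.12% of all such genes) and 0 as higher. Their median change was -0.30, and 23 of the 25 brightest probe sets had a negative change. Of 14 further genes of the list with 1 tested probe set, 2 passed as lower, against 8.26% of all such genes. Rrm2, the regulated subunit of ribonucleotide reductase, read 2745 and 2737 at 3 h and 1626 and 1608 at 24 h, a change of -0.75 (SE 0.10, adjusted p = 0.00104), and all 3 of its probe sets passed. Mcm5, a subunit of the replicative helicase, read 1322 and 1323 at 3 h and 734 and 876 at 24 h, a change of -0.71 (SE 0.21, adjusted p = 0.0473). Rpa2, which coats single-stranded DNA, read 276 and 306 at 3 h and 201 and 202 at 24 h, a change of -0.49 (SE 0.14, adjusted p = 0.0451). The arrays of the 2 times did not overlap in any of these. Both 24 h arrays lay below both 3 h arrays on 48 of the 57 probe sets of the list (84.2%), against 25.2% of all probe sets of genes with 2 or more. The count was 15 with either 24 h array of AML12 left out, 1 with either 3 h array of AML12 left out and 0 or 1 with any 1 v-erbA array left out.

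Of 21 ribosome biogenesis genes 4 counted as lower (19.0%, against 2.12% of all genes with 2 or more tested probe sets) and 0 as higher. Their median change was -0.20, with 19 of the 21 brightest probe sets negative. Nop56, a core protein of the box C/D particles, read 1727 and 1719.8 at 3 h and 1342 and 1433 at 24 h, a change of -0.31 (SE 0.07, adjusted p = 0.0204). Nhp2, of the box H/ACA particles, read 2364 and 2267 at 3 h and 1863 and 1923 at 24 h, a change of -0.29 (SE 0.06, adjusted p = 0.0115). Dkc1, the pseudouridine synthase of the same particles, and Ncl, nucleolin, also counted, with changes of -0.22 and -0.20 on their brightest probe sets, the first of which missed the threshold (adjusted p = 0.102). The count was 0 or 1 with any 1 v-erbA array left out, 0 without the mean-variance trend and 1 without cross-matching probe sets. No proteasome subunit counted among 16, although all 16 brightest probe sets had a negative change, with a median of -0.08. The 22 respiratory chain genes had 0 counted and a median of -0.01.

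Regulators and targets of NF-kB were the list with the highest median among the 34 lists with 5 or more members tested on 2 or more probe sets. Of 12 genes with 2 or more tested probe sets, 5 counted as higher and 0 as lower, with a median change of 0.29, and 19 of their 34 probe sets passed as higher (55.9%), against 8.5% of all probe sets of genes with 2 or more. Of 9 further genes of the list with 1 tested probe set, 5 passed as higher, against 11.6% of all such genes. Nfkbie, an inhibitor that holds NF-kB in the cytoplasm, read 463 and 465 at 3 h and 815 and 722 at 24 h, a change of 0.70 (SE 0.08, adjusted p = 0.00023), and its other probe set rose by 0.80. Nfkbia, the best known inhibitor of that family, read 4634 and 4735 at 3 h and 5372 and 5890.2 at 24 h, a change of 0.26 (SE 0.04, adjusted p = 0.0016), and all 5 of its probe sets passed. Tnfaip3, the enzyme A20 that ends NF-kB signalling, read 977 and 954 at 3 h and 1474 and 1224 at 24 h, a change of 0.47 (SE 0.09, adjusted p = 0.00663). Nfkbie, Nfkbia and Tnfaip3 all restrain the pathway.

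Nfkb2, a subunit of NF-kB itself, read 565 and 577 at 3 h and 789 and 751 at 24 h, a change of 0.42 (SE 0.07, adjusted p = 0.00282). Its other probe set rose by 1.59, so that the 2 probe sets of Nfkb2 differed in size. Cxcl1, a chemokine that attracts neutrophils, read 1513 and 1309 at 3 h and 2107 and 1887 at 24 h, a change of 0.50 (SE 0.09, adjusted p = 0.00454), and all 3 of its probe sets passed. In each of the 5 counted genes both 24 h arrays lay above both 3 h arrays on the brightest probe set. Leaving out the v-erbA 3 h control array left 2 of the 5 (Nfkbie and Nfkbia), leaving out the 24 h RA array left 3 (without Cxcl1 and Nfkbia), and leaving out the 24 h control lost Tnfaip3. Without probe sets that the manufacturer marks as cross-matching Cxcl1, Nfkb2 and Nfkbie were lost, and 3 genes of the list counted, Tnfaip3, Nfkbia and 1 that did not count before.

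The promoters of these genes are shown for the kappaB motif, the ten-letter NF-kB site by its usual consensus, searched on both strands of the same 250 bases. The table held 8 promoters of the 5 genes, and 7 of them, with at least 1 for each gene, held the motif, against 3.90% of 32851 promoters of all genes. Over the whole list, counted or not, 50% of 24 promoters held it. The list was drawn up as NF-kB targets, so this share describes the list. Capitals mark the motif, which in Cxcl1 is found in 2 overlapping frames.
Cxcl1, chr5:90890995-90891244, plus strand: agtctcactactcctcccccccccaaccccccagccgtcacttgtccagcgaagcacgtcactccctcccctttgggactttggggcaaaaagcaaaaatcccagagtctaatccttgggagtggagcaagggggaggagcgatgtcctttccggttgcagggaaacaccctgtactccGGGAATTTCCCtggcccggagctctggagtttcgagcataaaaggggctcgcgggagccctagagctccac
Nfkbie, chr17:45555450-45555699, plus strand: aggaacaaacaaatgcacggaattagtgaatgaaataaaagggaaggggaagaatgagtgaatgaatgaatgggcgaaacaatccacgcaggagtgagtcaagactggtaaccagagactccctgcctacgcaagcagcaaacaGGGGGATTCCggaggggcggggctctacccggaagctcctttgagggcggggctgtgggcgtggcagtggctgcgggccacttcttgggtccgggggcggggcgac
Nfkbia, chr12:55492648-55492897, minus strand: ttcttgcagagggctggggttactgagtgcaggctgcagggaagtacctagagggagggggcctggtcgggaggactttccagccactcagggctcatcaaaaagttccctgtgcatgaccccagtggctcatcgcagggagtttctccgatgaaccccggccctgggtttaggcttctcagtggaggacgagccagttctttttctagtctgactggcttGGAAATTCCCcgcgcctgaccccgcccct
In Nfkbia the motif begins 29 bases before the start site, in Cxcl1 71 and in Nfkbie 106.

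Genes of the acute phase, the set of plasma proteins that the liver makes more of in inflammation, were also higher in part. Of 6 such genes 3 counted as higher (50%, against 3.6% of all genes with 2 or more tested probe sets) and 0 as lower, with a median change of 0.26. Of 11 further genes of the list with 1 tested probe set, 2 passed as higher and 1 as lower. Among all such genes 11.6% passed as higher and 8.26% as lower. Lbp, the plasma protein that binds bacterial lipopolysaccharide, read 1829 and 1989 at 3 h and 2683 and 3165 at 24 h, a change of 0.61 (SE 0.05, adjusted p = 7.6e-05). Socs3, the feedback inhibitor of interleukin-6 signalling, read 247 and 249.7 at 3 h and 450.05 and 402 at 24 h, a change of 0.73 (SE 0.09, adjusted p = 0.000497), and all 3 of its probe sets passed. Cp, ceruloplasmin, read 6913 and 7154 at 3 h and 8411 and 7792 at 24 h, a change of 0.20 (SE 0.04, adjusted p = 0.0126). Osmr, the receptor for oncostatin M, a cytokine of the interleukin-6 family, is outside the list. It is named because it was among the 14 genes with the largest agreeing rises. Osmr read 353 and 328 at 3 h and 643 and 506 at 24 h, a change of 0.71 (SE 0.09, adjusted p = 0.000552). Without 1 v-erbA array the list kept 1 or 2 genes: Cp and Socs3 were lost without the 3 h control or the 24 h control, and Socs3 alone without either RA array.

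Genes known to answer growth factor withdrawal and nutrient shortage were higher in part. Of 10 FoxO and insulin-repressed genes 3 counted as higher (30%, against 3.6% of all genes with 2 or more tested probe sets) and 0 as lower, with a median of 0.19. The 7 further genes of the list with 1 tested probe set did not lean upward: 1 passed as higher and 2 as lower. Txnip, the thioredoxin inhibitor that restrains glucose uptake, read 1295 and 1205 at 3 h and 2065 and 2000.2 at 24 h, a change of 0.69 (SE 0.06, adjusted p = 4.26e-05). Pik3ip1, an inhibitor of PI3 kinase, read 593 and 541 at 3 h and 768 and 819.6 at 24 h, a change of 0.47 (SE 0.09, adjusted p = 0.0059). Ccng2, a cyclin found in cells that leave the cycle, read 788 and 760.2 at 3 h and 1009 and 977 at 24 h, a change of 0.35 (SE 0.07, adjusted p = 0.00818). The list kept Txnip alone without the 3 h RA array and 0 genes without any 1 of the other 3 v-erbA arrays. Depp1, a FoxO target outside the list, was among the 14 largest agreeing rises. It is named for the size of its rise and adds nothing to the count of the list. Depp1 read 63.1 and 112 at 3 h and 244 and 350.2 at 24 h, a change of 1.58 (SE 0.16, adjusted p = 0.00016).

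Of 18 amino acid stress genes 4 counted as higher (22.2%, against 3.6% of all genes with 2 or more tested probe sets) and 0 as lower, with a median of 0.12. Of 9 further genes of the list with 1 tested probe set, 1 passed as higher, against 11.6% of all such genes. Atf4, the factor that drives this response, read 2707 and 2772 at 3 h and 3284 and 3635 at 24 h, a change of 0.33 (SE 0.05, adjusted p = 0.00114). Slc7a1, a carrier of arginine and lysine, changed by 0.47 (SE 0.07, adjusted p = 0.00126). Trib3, an ATF4 target that feeds back on it, changed by 0.39, and Mthfd2, an enzyme of mitochondrial folate, by 0.31. The last 2 no longer counted after median centring, and the count was 1 with any 1 v-erbA array left out. Slc1a4, a carrier of small neutral amino acids, is outside the list and named because it was among the 14 largest agreeing rises. Slc1a4 read 134 and 157 at 3 h and 256 and 256 at 24 h, and all 3 of its probe sets passed (0.74, SE 0.10, adjusted p = 0.000815 on the brightest). The 10 aminoacyl-tRNA synthetases, many of them known ATF4 targets, had 0 counted and a median of -0.0048.

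Cholesterol synthesis genes leaned upward. Of 11 genes 2 counted as higher and 0 as lower, with a median of 0.23, and both 24 h arrays lay above both 3 h arrays on 20 of 28 probe sets (71.4%), against 36.6% of all probe sets of genes with 2 or more. Fdft1, squalene synthase, read 411 and 416 at 3 h and 631 and 701 at 24 h, a change of 0.66 (SE 0.07, adjusted p = 0.000274). Hmgcs1, which makes the precursor of mevalonate, read 1281 and 1305 at 3 h and 1602 and 1819.5 at 24 h, a change of 0.40 (SE 0.08, adjusted p = 0.00977), and all 4 of its probe sets passed. Both genes were lost without the 24 h RA array, and Fdft1 without the 3 h RA array. Of 17 fatty acid and triglyceride genes Lpin1, a phosphatidate phosphatase, rose by 0.44, a call lost with quantile normalization, and Me1, malic enzyme, fell by 0.20, with a median of 0.14.

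The largest agreeing rise was in a gene outside the lists, Tpm2, named here for its size. Another tropomyosin gene, Tpm3, counted as lower. Tpm2, a muscle-type tropomyosin, read 28.5 and 17.6 at 3 h and 369 and 411 at 24 h on its brightest probe set, at least 5.30-fold higher, and at least 2.33-fold higher on the other. It was under the level on the 3 h arrays of both lines, and did not count without the filter on dim probe sets or with a filter on the mean signal. Acta2, smooth muscle actin, read 66.7 and 69.1 at 3 h and 195 and 167 at 24 h, at least 2.45-fold higher (adjusted p = 0.00264). Sparc, a matrix glycoprotein, read 3636 and 3627 at 3 h and 4341 and 4120.4 at 24 h, a change of 0.22 (SE 0.04, adjusted p = 0.00687). Acta2 and Sparc were the 2 counted of 9 mesenchymal genes, whose median was 0.14. Of 13 matrix genes 2 counted as higher, Col4a5 (0.67, SE 0.08, adjusted p = 0.000401) and Col18a1 (0.21, SE 0.05, adjusted p = 0.0225), both collagens of basement membranes. Col18a1 no longer counted after median centring. The 10 further matrix genes with 1 tested probe set leaned the other way: 1 passed as higher and 4 as lower. Among all genes with 1 tested probe set 11.6% passed as higher and 8.26% as lower. Neither collagen counted without any 1 of the 4 v-erbA arrays, and Acta2 was lost without the 3 h RA or the 24 h control array. Acta2 was also lost with an offset of 1 unit, without the filter on dim probe sets and with a filter on the mean signal. Without cross-matching probe sets Acta2 and Col18a1 were lost.

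Of 13 TGF-beta genes 2 counted as higher and 1 as lower, with a median of -0.06. Tgfbr1, the type I receptor, read 4376 and 4035 at 3 h and 2983 and 2108 at 24 h, a change of -0.74 (SE 0.12, adjusted p = 0.00255), and its 2 dimmer probe sets fell by more than 1 log2 unit (-1.04 and -1.05). Smad3, a signal carrier below that receptor, read 825 and 1256 at 3 h and 1160 and 1656 at 24 h, higher in each pair although the times overlapped, and rose by 0.44 (SE 0.06, adjusted p = 0.000714), and Ltbp3, which stores latent TGF-beta, by 0.23 (SE 0.07, adjusted p = 0.0437); Ltbp3 was lost after either rescaling. The receptor and its carrier moved in opposite directions, and without any 1 of the 4 v-erbA arrays Tgfbr1 still counted and Smad3 and Ltbp3 did not.

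Of 10 interferon-stimulated and antigen presentation genes 3 counted as higher (30%, against 3.6% of all genes with 2 or more tested probe sets) and 0 as lower. Their median was 0.15. Of 21 further genes of the list with 1 tested probe set, 3 passed as higher and 0 as lower. Among all such genes 11.6% passed as higher and 8.26% as lower. Tapbp, the chaperone tapasin, read 1371 and 1391 at 3 h and 1694 and 1713 at 24 h, a change of 0.30 (SE 0.05, adjusted p = 0.00454). H2-K1 and H2-D1, class I molecules whose near-identical sequences let probe sets cross-match, rose by 0.24 and 0.26. The rise passed on 3 of 4 probe sets of H2-K1 and on 2 of 5 of H2-D1. In H2-D1 not every probe set moved the same way in both pairs. Without cross-matching probe sets H2-K1 and H2-D1 were lost and 1 gene of the list counted. None of the 3 counted without either RA array, Tapbp was lost without either control array, and H2-D1 without the 24 h control. Serpinb9, an inhibitor of granzyme B, is outside the list and named because it was among the 14 largest agreeing rises. It read 879 and 1043 at 3 h and 1147 and 1713 at 24 h, a change of 0.54 (SE 0.08, adjusted p = 0.00109). Of 14 Nrf2 antioxidant genes 2 counted as higher, the glutathione transferases Gstm1 (0.25) and Gsta3 (0.12), and 2 as lower, Me1 (-0.20) and Tkt (-0.19), suppliers of NADPH and pentoses. The balance was 1 higher and 5 lower after median centring and 1 and 4 after quantile normalization. The probe sets of Gstm1 ranged from 0.25 to 2.79, Gstm genes are close paralogs, and Gsta3 was lost after either rescaling.

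Of the remaining 14 largest agreeing rises, several belong to none of these lists. Cyp2j5, an arachidonic acid epoxygenase of liver and kidney, read 474 and 582 at 3 h and 914 and 1007 at 24 h, a change of 0.84 (SE 0.07, adjusted p = 4.98e-05). Pld1, phospholipase D, read 579 and 521 at 3 h and 1086 and 853 at 24 h, a change of 0.79 (SE 0.08, adjusted p = 0.000161), and all 3 of its probe sets passed. Pak3, a kinase below Rac and Cdc42, read 1008 and 898 at 3 h and 1591 and 1368 at 24 h, a change of 0.62 (SE 0.08, adjusted p = 0.000785), and all 4 of its probe sets passed. Both 24 h arrays exceeded both 3 h arrays in each of the 3.

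Nectin2, an adhesion molecule of cell junctions, read 545 and 561 at 3 h and 865 and 965 at 24 h, a change of 0.71 (SE 0.07, adjusted p = 0.000121). Casp12, a caspase of the endoplasmic reticulum, read 421 and 433 at 3 h and 768 and 715 at 24 h, a change of 0.77 (SE 0.08, adjusted p = 0.000127). Pard6g, a protein of cell polarity, read 395 and 665 at 3 h and 682 and 882 at 24 h, a change of 0.58 (SE 0.10, adjusted p = 0.00378). In Pard6g the 3 h RA array nearly reached the 24 h control. Cyp2j5, Txnip, Osmr, Nectin2 and Pard6g no longer counted without the 3 h control or the 24 h control array, and Cyp2j5 and Txnip without the 24 h RA array. The last, 1700003F12Rik, read 145 and 135 at 3 h and 452 and 463 at 24 h, a change of 1.58 (SE 0.09, adjusted p = 4.76e-06). Its other probe set is of the kind marked as cross-matching and read 2.99 and 7.94 units at 3 h. The gene did not count without that probe set or with a filter on the mean signal.

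**Figure D3:**
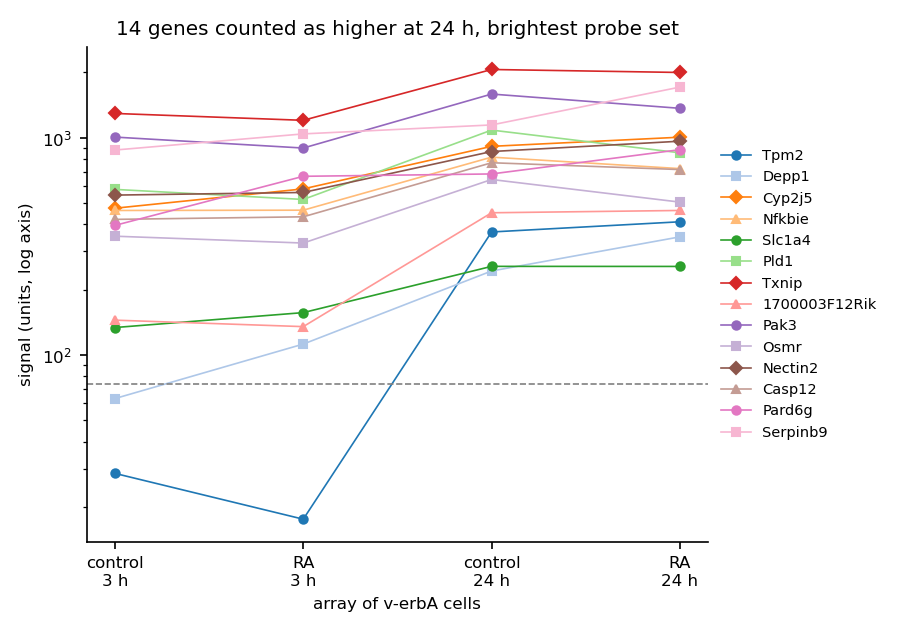
Signal of the brightest probe set (units, log axis) on the 4 arrays of v-erbA cells for the 14 genes with the largest agreeing rises, with lines joining the arrays for each gene and the dashed line at the level of 73.5 units. Both 24 h arrays lie above both 3 h arrays in every gene; Tpm2 was under the level on both 3 h arrays (28.5 and 17.6 units) and Depp1 on the 3 h control (63.1 units).

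Among the lower genes, the largest falls came from 2 pairs of probe sets with consecutive numbers. Rasgrp2, a calcium-regulated activator of Rap, read 365 and 346 at 3 h and 30.4 and 35.01 at 24 h, at least 4.84-fold lower, and H2-DMb2, a class II chaperone of immune cells, read 362 and 301 at 3 h and 17.9 and 0.307 at 24 h, at least 4.49-fold lower. In both genes 1 of the 2 probe sets is of the kind marked as cross-matching, and neither gene counted without it. Anxa8, an annexin, read 159 and 147 at 3 h and 96.3 and 71.0 at 24 h, a change of -0.75 (SE 0.13, adjusted p = 0.00333). Anxa8 did not count without either RA array of v-erbA cells or without cross-matching probe sets. Pgk1, of glycolysis, fell by 0.18 (SE 0.04, adjusted p = 0.0158) on its brightest probe set, and the median of its list of 18 glycolysis and hypoxia genes was -0.03.

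Of 7 hepatocyte markers with 2 or more tested probe sets 0 counted, with a median of 0.08. With the v-erbA arrays alone 2 counted as higher. Of 17 further markers with 1 tested probe set 3 passed as higher and 0 as lower, against 11.6% and 8.26% of all such genes. Ttr, transthyretin, read 10707 and 10526 at 3 h and 10841 and 10879 at 24 h on its brightest probe set. Alb, albumin, read between 9364 and 10432 units over the 4 arrays. Other hepatocyte markers moved more on their brightest probe set. Apoa1 read 200 and 282 at 3 h and 742 and 389 at 24 h, and Apoh 688 and 752, then 1334 and 854. Fgb read 879 and 1503 at 3 h and 1949 and 1888 at 24 h, while Hnf4a read 1932 and 1575, then 1538 and 1218. The same rule counted 0 of 7 circadian clock genes (median 0.16), 0 of 13 heat shock genes (0.0012), 0 of 17 autophagy and lysosome genes (0.03), 0 of 9 fatty acid oxidation genes (0.04), 0 of 9 epithelial junction genes (0.03) and 0 of 5 Wnt genes (-0.07). All 6 YAP target genes had a positive change on the brightest probe set, with a median of 0.17, and 0 counted. A gene that misses the rule is not shown to be unchanged. In the lists of p53 targets (1 higher, 2 lower of 9), CDK inhibitors (1 higher of 8), immediate early (1 higher of 6), ERK feedback (1 higher of 5) and endoplasmic reticulum genes (1 higher of 14), the genes higher were Btg2, Ccng2, Btg2 again, Spred1 and Herpud1, and the p53 targets lower were Ccng1 and Aen. Of these Btg2, Spred1 and Herpud1 no longer counted after median centring. Of 9 retinoic acid genes Tgm2, lost after median centring, and Nrip1 counted as higher, and of 9 thyroid hormone genes Me1 as lower.

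**Figure D4:**
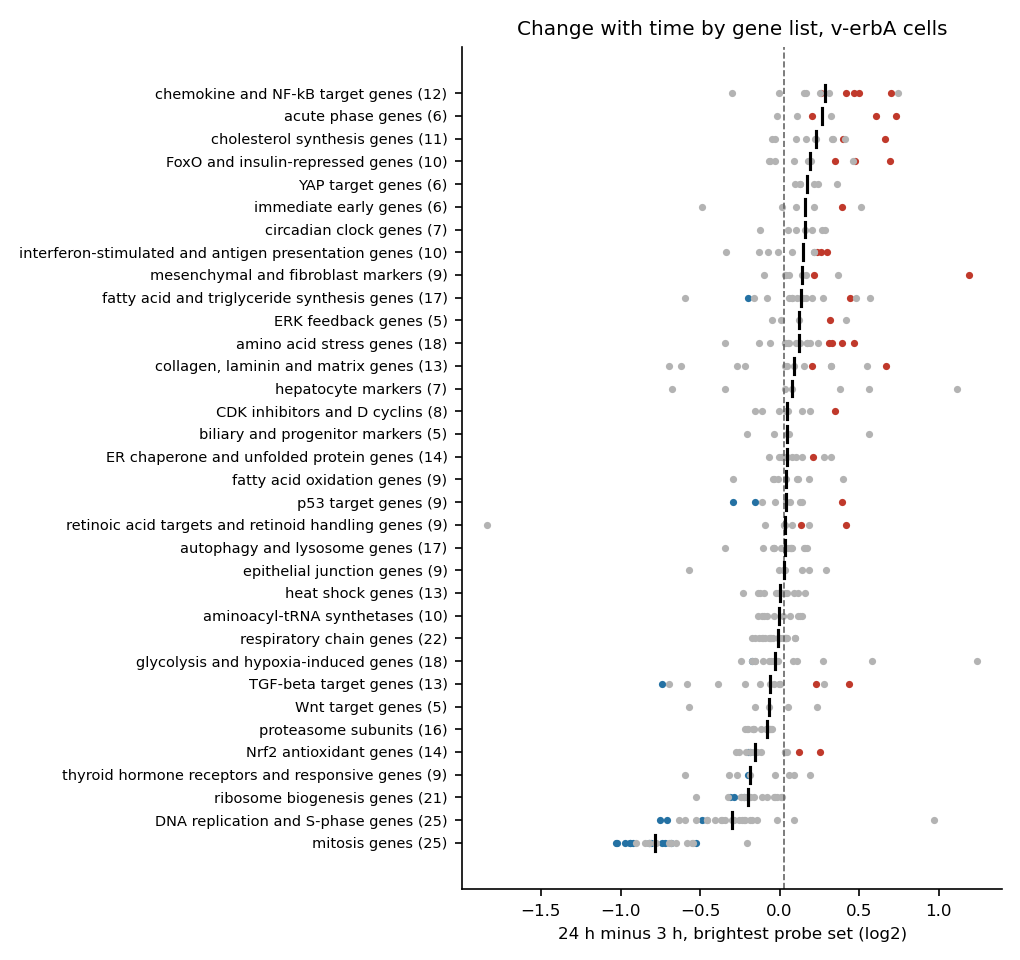
Change from 3 h to 24 h in v-erbA cells (log2) on the brightest probe set of each member, for the 34 gene lists with at least 5 members that had 2 or more tested probe sets (number in brackets), with members counted as higher in red, as lower in blue and others in grey. Black bars are list medians and the dashed line is the median of all genes, 0.03; the mitosis list lies lowest at -0.78 and the NF-kB list highest at 0.29.

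Markers of the labelled cell type were present. Of 11 hepatocyte markers 10 were above the level on all 4 arrays. The summed signal of the 11, mostly Alb, Ttr, Krt8 and Krt18, ran from 38119 to 41176 units. Fgg, a fibrinogen chain, ran from 30.0 to 85.8. All 4 biliary markers with a value were above it. Of 6 macrophage markers 4 (Cd68, Ptprc, Lyz2 and Clec4f) were under the level on all 4 arrays. Csf1r was above it on all 4, with 190 and 183 units at 3 h and 85.0 and 103 at 24 h. Adgre1 was above it at 3 h (98.9 and 114) and under it at 24 h (47.7 and 53.9). The sum of the 6 was 454 and 454 units at 3 h and 340 and 350.0 at 24 h. Of 6 endothelial markers 0 were above it on all 4 arrays, and Pecam1, Cdh5 and Stab2 were below it on all. Of 6 mesenchymal markers Col3a1 and Pdgfrb were below it on all 4, and the sum of the 6, mostly Vim, went from 5065 and 5174 units at 3 h to 6425 and 6607 at 24 h. Among them Acta2 rose, as above, while Col1a1, a fibrillar collagen, read 97.2 and 119 at 3 h and 1.77 and 4.38 at 24 h. The part of these markers in the results was not tested. Fewer cells of a type and less RNA per cell cannot be told apart in such samples.

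A second probe set often opposed a large change. In 73 genes at least 1 probe set passed as higher and another as lower. Tmsb10, thymosin beta 10, an actin-binding peptide, is the clearest case: 1 probe set read 94.5 and 113 at 3 h and 7901 and 8002 at 24 h, while its brightest read 12275 and 12168 at 3 h and 11578 and 12242 at 24 h. Another probe set of Tmsb10 fell, so the probe sets of 1 gene gave 3 answers. Ddr1, a collagen receptor, had 1 probe set that fell from 1945 and 1877 to 247 and 228 and another that rose from 328 and 346 to 1893 and 1929. Tmem158, a membrane protein, likewise had 1 probe set at least 3.75-fold higher and 1 at least 11.6-fold lower, and Lpcat2, an enzyme of phospholipid remodelling, 1 at least 2.31-fold higher and 1 at least 2.59-fold lower.

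Genes with 1 tested probe set cannot be checked in this way. Mt3, a brain metallothionein, went from 3.56 and 0.333 to 1178 and 1174 units, at least 16.0-fold higher, Slc12a8 at least 14.5-fold and Slc22a16 at least 14.4-fold. Ndufb1, a subunit of complex I, went from 1386 and 1378 to 143 and 140.2, a change of -3.12 (SE 0.12), while 22 respiratory chain genes with more probe sets had a median of -0.01. Larp6 (-2.93) and Tal2 (at least 8.75-fold lower) were the other large single falls.

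Most of the time effect was shared with the parent line. In AML12 cells without v-erbA 5728 probe sets passed (23.0%), 3172 of them in the same direction in both lines, which is 77.0% of the v-erbA calls and 55.4% of the AML12 calls, and 16 in opposite directions. By the gene rule 245 genes were higher and 275 lower in AML12; 198 counted in the same direction in both lines, 63.9% of the v-erbA genes and 38.1% of the AML12 genes. The lines share no arrays, but both time effects come from the same fit with the same SE, so their calls are not independent. Time and array processing cannot be told apart in either line. Of the 310 v-erbA genes the brightest probe set of 289 had the same sign in AML12.

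**Figure D5:**
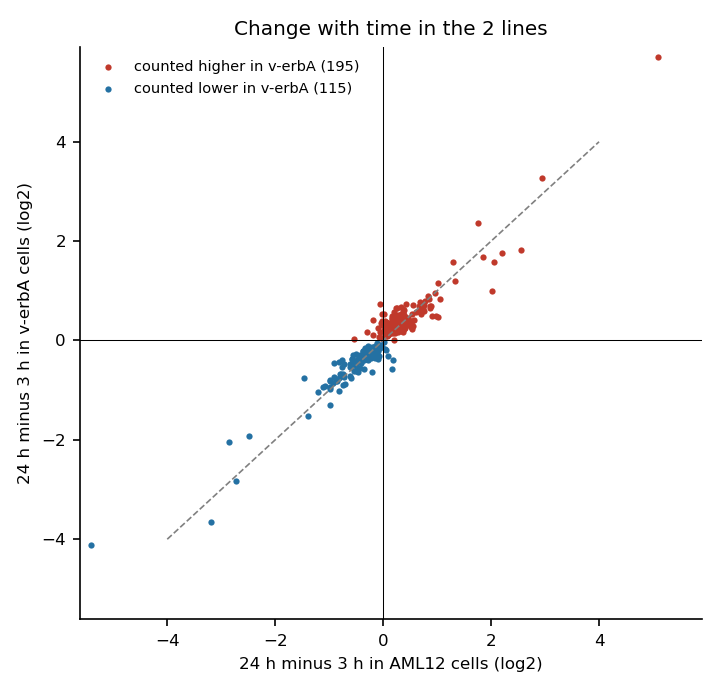
Change from 3 h to 24 h (log2) on the brightest probe set of the 310 genes counted in v-erbA cells, in AML12 cells (x axis) against v-erbA cells (y axis), with genes higher in red (195) and lower in blue (115). The points follow the dashed line of equal change, and 289 of the 310 have the same sign in both lines.

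A test of the difference of the time effect between the lines passed for 28 of 24955 probe sets (0.112%), 12 with a higher and 16 with a lower time effect in v-erbA cells, and for 0 genes by the rule of agreeing probe sets. In limma's fit 2164 probe sets had an unadjusted p under 0.05 for this difference (8.67%). Socs3 rose in v-erbA cells and read 408 and 346 at 3 h and 359 and 363 at 24 h in AML12, yet the difference of 0.79 (SE 0.13) missed the threshold (adjusted p = 0.078). Serpinb9 differed by 0.52 (SE 0.11, adjusted p = 0.175) on its brightest probe set.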

How the data were processed

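RNA of 8 samples was hybridised to 8 Affymetrix arrays, 1 per combination of line, treatment and time. Per the labels' protocols, RNA was purified by Trizol and RNeasy columns before biotin labelling. The deposited values are linear signal intensities of 45037 probe sets, 1 for each array. How probes were summarized and arrays scaled is not given in the sources used here, and the authors' scaling was kept. The medians of the 4 v-erbA arrays ran from 71.4 to 76.1 units, and precision is limited by how few arrays there are. The platform annotation names 1 gene for 34945 probe sets, several for 932 (not used for genes) and none for 9160; gene identifiers of 34741 were found in RefSeq's table (GRCm38.p6), which changed 0 symbols.

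Values were taken to log2(signal + 19.9), the offset being the 20th percentile. limma 3.58.1 in R 4.3.3 fitted line by time plus treatment over the 8 arrays, with 3 residual degrees of freedom, a mean-variance trend and Benjamini-Hochberg adjustment over all 24955 probe sets tested; the v-erbA estimate is the mean of the 24 h minus that of the 3 h arrays, and the spread comes from all 8. The fit was run on simulated arrays with independent errors, in which the RA effect was the same across times and lines. That run cannot show whether the p-values of these data are well calibrated. A bound is the mean of the brighter time against the level of 73.5 units.

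Genes named are the 14 higher and 14 lower whose least changed probe set (signals under the level set to it) changed most, with the same direction in both pairs on every tested probe set; for the line difference up to 6 each way (0 counted); up to 4 each way per list, or the 1 or 2 brightest where none counted; 4 opposed genes; and 3 single-probe genes each way. Nfkbia, named to complete the 5 counted genes of its list, falls outside this rule and was chosen after its values were seen. Apoa1, Apoh, Fgb, Hnf4a and Tpm3 were likewise named after their values were seen. Alb, Krt8, Krt18, Col1a1 and Vim are named as markers. The closing section names the probe sets with 1 gene that were above the level on all 8 arrays and passed for the line difference. The members and the 36 gene lists (875 genes) were chosen with earlier results of these data known. Alternatives were other scalings, offsets and filters, no trend, v-erbA arrays alone, a line by treatment term, leaving out cross-matching probe sets or 1 array, and looser or stricter agreement. Drawing used matplotlib 3.10.9 in Python 3.11.15.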

Additional observations from a re-analysis of the deposited data

Results flagged for a closer look

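The time effect differed between the v-erbA and AML12 lines at an adjusted p under 0.05 in limma's fit for 28 probe sets, which is why it is given here. Of these, 5 name 1 gene and were above the level on all 8 arrays. Spon2, a matrix protein, rose in both lines, and its v-erbA minus AML12 difference was -1.25 (SE 0.13, adjusted p = 0.00865): it read 410.4 and 342 at 3 h and 737 and 727 at 24 h in v-erbA cells, against 219 and 178 at 3 h and 1090.4 and 850.4 at 24 h in AML12. Mt2, metallothionein 2, fell in v-erbA cells from 6986 and 7175 to 5073 and 4818, with a difference of -0.49 (SE 0.06, adjusted p = 0.0187). Spon2 and Mt2 each had 1 tested probe set. Ugt2b34, a glucuronosyl transferase, differed by -0.80 (SE 0.10, adjusted p = 0.0238), reading 508 and 465 at 3 h and 455 and 381 at 24 h in v-erbA cells and rising from 804 and 662 to 1188 and 1035 in AML12. The brighter probe set of Ugt2b34 differed by -0.48 with an adjusted p of 0.19. The difference was 0.32 (SE 0.04, adjusted p = 0.0444) on 1 probe set of Peg3, and its other 2 gave 0.30 and 0.37, neither past the threshold. It was -1.53 (SE 0.18, adjusted p = 0.0216) on 1 probe set of Dctn4, while the other 4 gave differences of the opposite sign, from 0.07 to 0.23.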

How the results depend on the processing

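Of 526 changes of single named genes under the alternatives, 470 kept their side of the threshold, 56 lost it and 0 turned. The counts of calls moved more. Centring each array on its median gave 112 genes higher, 178 lower, 2 amino acid stress genes and 51 probe sets for the line difference. An offset of 1 unit left 1 replication gene, and an offset at the pooled median gave 50 probe sets for the line difference. That difference had 51 without the filter, 15 with a filter on the mean (which left 1 replication gene) and 18 without the mean-variance trend. Dropping the trend gave 149 genes in all (104 higher, 45 lower), with 2 mitosis, 1 replication, 0 ribosome biogenesis and 2 amino acid stress genes; 9 of the 14 lower genes named first were lost. The v-erbA arrays alone, with treatment as a term, gave 541 genes (318 higher, 223 lower), which held all 310, with 15 replication and 7 ribosome biogenesis genes. Without the treatment term 193 genes were lower and 14 were of replication. Without cross-matching probe sets 1 ribosome biogenesis, 3 NF-kB and 2 amino acid stress genes counted. Where every probe set had to pass, 185 genes counted (114 higher, 71 lower), 2 of ribosome biogenesis. The cause of these shifts was not tested.

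Leaving out 1 array at a time gave 2032 to 5944 probe sets, 70 to 597 genes (48 to 347 higher, 22 to 250 lower), and 10 to 311 probe sets for the line difference. The ranges were 1 to 18 for mitosis, 0 to 15 for replication, 0 to 8 for ribosome biogenesis, 2 to 6 for NF-kB and 1 to 5 for amino acid stress genes. The lowest counts of genes came without the v-erbA 24 h RA array and the highest without the AML12 24 h control. The arrays carry no replicate numbers, and their pairing by treatment is a term of the fit.

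With 1 array a group, dim probe sets bound a fold only, and changes near the scaling shift depend on it. Small medians, such as those of the p53, junction, lysosome and fatty acid oxidation lists, change sign with scaling.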
